A study of Mus musculus with 15 samples.

Results

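Ancient relics of long terminal repeat (LTR) retrotransposons gave rise to piRNAs in the mouse testis, and 2 groups of them are described separately here. The first comprised all loci annotated as LTR elements of the ERVL-MaLR family whose name begins with neither MT nor ORR1. It held 40207 of the 8128951 loci found in the 15 libraries, and all 35 of its repeat names begin with MLT. The other comprised 2224 loci of LTR families other than ERVK, ERV1, ERVL and ERVL-MaLR. Its 14 names belong to the family simply called LTR, to Gypsy, and to ERVK# and Gypsy#, spelled as in the locus identifiers. Loci of the LTR family carried 97.0% of the counts of this second group. A locus is a genomic interval and strand with the number of reads that begin and end exactly there, so its length is the length of the small RNA.

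The 15 libraries were made from testis small RNA of C57Bl/6 males aged 8 weeks, for which the labels name no mutation, and fall into 5 groups of 3. Input libraries, Ψ-IP libraries recovered with an antibody against pseudouridine (Ψ) and flow-through libraries of the unbound RNA form 1 set. Libraries treated with CMC, a carbodiimide that binds Ψ and blocks reverse transcriptase, and mock-treated libraries form the other, made with a kit of another maker. Total counts ranged from 11575705 in a Ψ-IP library to 58399368 in a mock-treated library. The study speaks of biological replicates for its experiments in general, but no label or method ties the libraries of a group to separate animals, so p-values measure the spread between libraries, which may be technical. In a whole testis, fewer germ cells of a stage and fewer piRNAs per cell cannot be told apart.

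MaLR elements are non-autonomous relatives of ERVL endogenous retroviruses. MLT elements are their old lineages, which spread in ancestors of placental mammals and have long since decayed, whereas MT and ORR1 elements are rodent lineages. piRNAs guide PIWI proteins in germ cells. Adult testes hold mostly pachytene piRNAs, cut from long single-stranded precursors of intergenic clusters, and most of these begin with uridine. A repeat inside such a precursor is cut into piRNAs together with the unique sequence around it.

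Annotated exons gave a sequence for 6323 MLT loci (15.7%) and 238 loci of the second group (10.7%). Those below show what the molecules look like and are the loci that the results on sequence turn on. They come from GENCODE transcripts of GRCm38, the assembly also called mm10, and are written 5′ to 3′ with each thymine, a uridine in the RNA and thus a possible Ψ, in capitals. The first 4 lie in an MLT1D copy and the fifth in an MLT1C copy, both in exons of the long noncoding RNA Gm21269 and on its strand. The last lies in an MLT1N2 copy in an exon of the long noncoding RNA 4930558J18Rik.
MLT1D, chr7:73824512-73824540, plus strand: TgggaTgTcaTgcaacTTTgagccaTgTT
MLT1D, chr7:73824440-73824469, plus strand: TaccaTgggccaaaacagTagaaaTccacT
MLT1D, chr7:73824430-73824459, plus strand: TgggacaaaTTaccaTgggccaaaacagTa
MLT1D, chr7:73824637-73824666, plus strand: TTTcaTTccTcTTcaaagcacTTccgaTTT
MLT1C, chr7:73821651-73821680, plus strand: TccTcTcTcTgTaTcTgTcTTTgTgTgcTT
MLT1N2, chr1:57359224-57359253, minus strand: TgTcTTTgaaTaaacTTcTTTTcTgTgaaT

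All 6 begin with T. Of the counts at MLT loci with a sequence, 92.6% were at loci beginning with T, against 88.0% at 150731 loci with a sequence outside both groups. At the 238 loci of the second group it was 86.1%. By number of loci the share was 58.7% among the MLT loci, which include loci of any count, and 83.8% outside, where only loci with more than 20 counts in a set were looked up. These 2 shares are therefore not comparable.

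Few copies supplied most reads. Loci of the same name and strand at most 300 bp apart were merged into 215 MLT copies on 19 chromosomes and 33 copies of the second group on 12. Between 14 and 16 MLT copies held 90% of the MLT level in each group of libraries, by mean CPM, and the first 5 held 51.7% to 60.6%. Which copy led differed between the groups. In mock-treated and CMC-treated libraries an MLT1A0 copy on chromosome 7 was first, with 27.6% and 30.2%, whereas in input, Ψ-IP and flow-through libraries it held 11.2%, 8.45% and 11.6%. There the first was an MLT1K copy on chromosome 18 in input (18.7%) and flow-through (20.4%), and an MLT1D copy on chromosome 7 in Ψ-IP (16.4%). In the second group a single 122-bp LTR91 copy held 90.7% to 98.1% in each group. It follows that values for the second group are, for practical purposes, values for this copy. Single-read loci made up 35.1% of MLT loci and 36.3% of the others.

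The abundant copies were read from a single strand. Of the 43 copies with at least 1000 counts on their major strand, 41 had at least 95% of their counts on it and 39 at least 98%. The 45 copies that reached 1000 counts, 2 of them minor strands, fell into 26 stretches when separated by gaps above 100000 bp. Of these stretches 12 held several copies, 31 in all, and 82.7% of all counts of both groups. An example lies at chr5:149790938-149824811, where MLT1F2, MLT1A0 and LTR91 copies were all read from the minus strand. Grouping into few stretches is partly fixed by the files, since the methods intersect reads with annotated piRNA clusters and all 8128951 loci of the 15 libraries lie in 953 stretches separated by gaps above 10000 bp, which span 10148324 bp. That reads surround a copy is thus no result either. Within 10 kb on each side of 32 abundant or named copies, the strand of the copy held more than 95% of the flanking counts for 26.

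MLT loci contributed between 5050 and 6905 counts per 1e+06 deposited counts (CPM) across the 15 libraries. The 3 input libraries had 6007, 5895 and 6105 CPM, the Ψ-IP libraries 5263, 5050 and 5204, and the flow-through libraries 6101, 6070 and 6158. Every Ψ-IP library was thus below every input and flow-through library. Against input the log2 fold change was -0.23 (SE 0.03, adjusted p = 0.000200), and against flow-through it was -0.26 (SE 0.03, adjusted p = 6.93e-05). Of 26 repeat families and groups tested, 57.7% were called against input and 80.8% against flow-through, so a call was the usual outcome at this level. Mock-treated libraries had 6473, 6588 and 6650 CPM and CMC-treated libraries 6702, 6817 and 6905. The latter were all higher, but by a log2 fold change of 0.05 (SE 0.02) that was not called (adjusted p = 0.0894, 8.00% of 25 rows called).

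The second group moved differently. Input libraries had 216, 265 and 217 CPM, Ψ-IP libraries 344, 306 and 328, and flow-through libraries 451, 450 and 420. Both fractions of the immunoprecipitation lay above every input library, and flow-through lay above Ψ-IP. The log2 fold change of Ψ-IP was 0.48 against input (SE 0.09, adjusted p = 0.00208) and -0.46 against flow-through (SE 0.07, adjusted p = 0.000269). The difference thus changed direction with the fraction used as reference, and both comparisons share the Ψ-IP libraries. Without the LTR91 copy the values were 0.28 (adjusted p = 0.038) and -0.13 (adjusted p = 0.392), and neither was called. Mock-treated libraries had 727, 805 and 780 CPM and CMC-treated libraries 686, 764 and 780, which overlapped (log2 fold change -0.06, SE 0.06, adjusted p = 0.522).

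**Figure D1:**
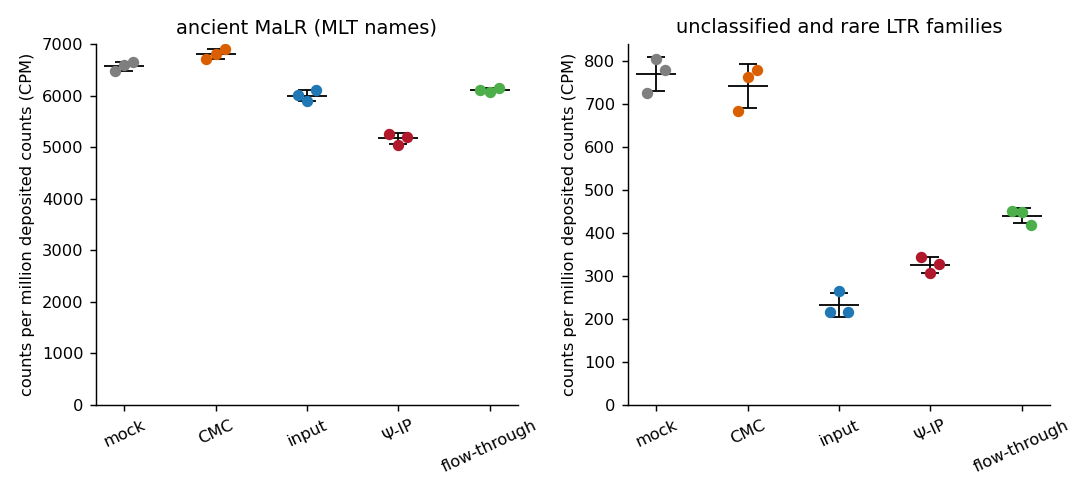
CPM at MLT loci (left) and at loci of the unclassified and rare LTR families (right), 1 point per library, with the mean and SD of the 3 libraries of a group. Ψ-IP libraries lie lowest on the left, between 5050 and 5263 CPM, and between input and flow-through on the right.

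The groups were next set against other LTR lineages within each library, since shares of a library depend on what else it holds. Relative to ORR1, the MLT total was lower in Ψ-IP than in input by 0.31 on the log2 scale and lower than in flow-through by 0.34, without overlap between libraries (p = 0.1 in an exact two-sided permutation test, adjusted p = 0.138 over 18 tests). Relative to MT and ERVL, the log2 difference from input was -0.15 and -0.11, also without overlap, and that from flow-through was -0.01 and 0.00 (exact p = 0.7 and 1). The ratio of the second group to ORR1, MT and ERVL was higher in Ψ-IP than in input by 0.40, 0.56 and 0.60, again without overlap. Against flow-through the same ratios went the other way, by -0.53, -0.20 and -0.19, also without overlap (exact p = 0.1 for each). With 3 libraries against 3 such a test cannot give a p-value below 0.1, so none of the 18 comparisons could pass a threshold of 0.05.

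Among the repeat names, MLT names fell more often than they rose. Of 35 MLT names 22 passed the minimum of 20 counts on average, and against input 7 of these were lower and 2 higher at an adjusted p-value below 0.01. Over all 412 names tested, 13.1% were lower and 14.6% higher. The median log2 fold change was -0.19 over the 22 and 0.02 over all names. Against flow-through 8 were lower and 3 higher of 22, where 23.6% and 25.5% of all 411 names were called in those directions. Of the second group 4 of 14 names were tested, of which 2 were higher than input and 1 lower than flow-through.

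MLT1K, the most abundant MLT name in flow-through, was low in every Ψ-IP library. Ψ-IP libraries had 702, 706 and 697 CPM, against 1155, 1064 and 1185 in input and 1271, 1241 and 1250 in flow-through. The log2 fold change was -0.66 against input (SE 0.05, adjusted p = 1.14e-06) and -0.82 against flow-through (SE 0.05, adjusted p = 9.2e-07). MLT1A0, first among MLT names by mean CPM in input, mock-treated and CMC-treated libraries but below MLT1D in Ψ-IP and below MLT1K in flow-through, had 882, 820 and 932 CPM in Ψ-IP, 1232, 1135 and 1247 in the input libraries and 1210, 1217 and 1277 in flow-through. It was lower than input by a log2 fold change of -0.42 and lower than flow-through by -0.47, again with no overlap. MLT1F2 fell furthest among the names, to 25.2, 22.5 and 21.9 CPM in Ψ-IP from 47.4, 50.2 and 49.9 in input (log2 fold change -1.06, SE 0.09, adjusted p = 1.29e-06).

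Lower than input were also MLT1C2 (log2 fold change -0.69), MLT1F (-0.40), MLT1E1 (-0.38) and MLT1A1 (-0.32). MLT1C2, MLT1F and MLT1F2 were lower than flow-through too, by -0.77, -0.45 and -0.73, while MLT1E1 was not called there (-0.12). MLT-int, an internal part of the element, was called against flow-through (-0.54) and not against input (-0.20, adjusted p = 0.0191), as were MLT1C (-0.40) and MLT1G1 (-0.45). The call of MLT1E1 against input was lost when input library 3, Ψ-IP library 2 or Ψ-IP library 3 was left out (values -0.38 to -0.34). Whether the difference between both comparisons is itself larger than the error was not tested.

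MLT1D and MLT1J-int rose against input. MLT1D had 970, 973 and 996 CPM in Ψ-IP and 825, 872 and 852 in input, a log2 fold change of 0.24 (SE 0.06, adjusted p = 0.00458). The MLT1D call was lost without input library 1 or 3 or Ψ-IP library 3 (values 0.20 to 0.23). MLT1J-int had 96.5, 93.6 and 79 CPM in Ψ-IP and 67.3, 66.1 and 66.4 in input (0.46, SE 0.08, adjusted p = 0.000755). Against flow-through neither was called, and MLT1B, MLT1J1 and MLT1N2 were higher instead. MLT1J1 had 153, 147 and 143 CPM in Ψ-IP and 94.7, 103 and 105 in flow-through (0.57, SE 0.07), but 153, 137 and 154 in input. For MLT1B, too, Ψ-IP and input overlapped.

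LTR91 had 317, 281 and 304 CPM in Ψ-IP, 196, 241 and 196 in the input libraries and 422, 422 and 396 in flow-through, so that the 3 groups did not overlap. RLTR51A, annotated as ERVK#, rose against input from 5.31, 5.91 and 4.66 to 9.51, 7.0 and 8.90 CPM (log2 fold change 0.72, SE 0.16, adjusted p = 0.00329). Leaving out input library 1 or 3, or Ψ-IP library 1 or 3, ended that call (values 0.63 to 0.71). RLTR51B had 12.8, 15.5 and 12 CPM in Ψ-IP and 9.85, 12.4 and 11.4 in input, which overlapped. LTR88c, annotated as Gypsy#, had 2.15, 1.33 and 2.12 CPM in input and 1.46, 1.81 and 1.17 in Ψ-IP and was not called (-0.39, adjusted p = 0.269). Names of the family Gypsy itself were scarce, with MamGypsy2-LTR at 0.625 CPM and MamGypLTR4 at 0.0863 CPM on average in input, and were not tested.

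Few names passed the threshold between CMC and mock treatment. Of 24 MLT names tested 1 was called, MLT1J, which was higher with CMC, at 144, 153 and 144 CPM against 130, 120 and 117 (log2 fold change 0.24, SE 0.05, adjusted p = 0.00805). Of 437 names 2.29% were higher and 4.12% lower. Larger differences than that of MLT1J, all lower with CMC and without overlap, were not called. They were those of MLT1F2-int (-0.45, adjusted p = 0.0398), RLTR51A (-0.37, adjusted p = 0.0307) and MLT1N2 (-0.31, adjusted p = 0.0505). Lower counts with CMC were called by edgeR for 0 of the 24 MLT and 0 of the 4 other names, and 9 and 1 of them had an unadjusted p below 0.05 in either direction. DESeq2 called 2 MLT names here. With replicate number as a block MLT1C was called as well, at a log2 fold change of -0.16 (SE 0.04, adjusted p = 0.00798). MLT1J was not called on library totals alone (adjusted p = 0.0127) or with loci of 24 to 33 nt only (adjusted p = 0.0151), and leaving out mock-treated library 2 or 3, or CMC-treated library 1 or 2, also left 0 names called.

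**Figure D2:**
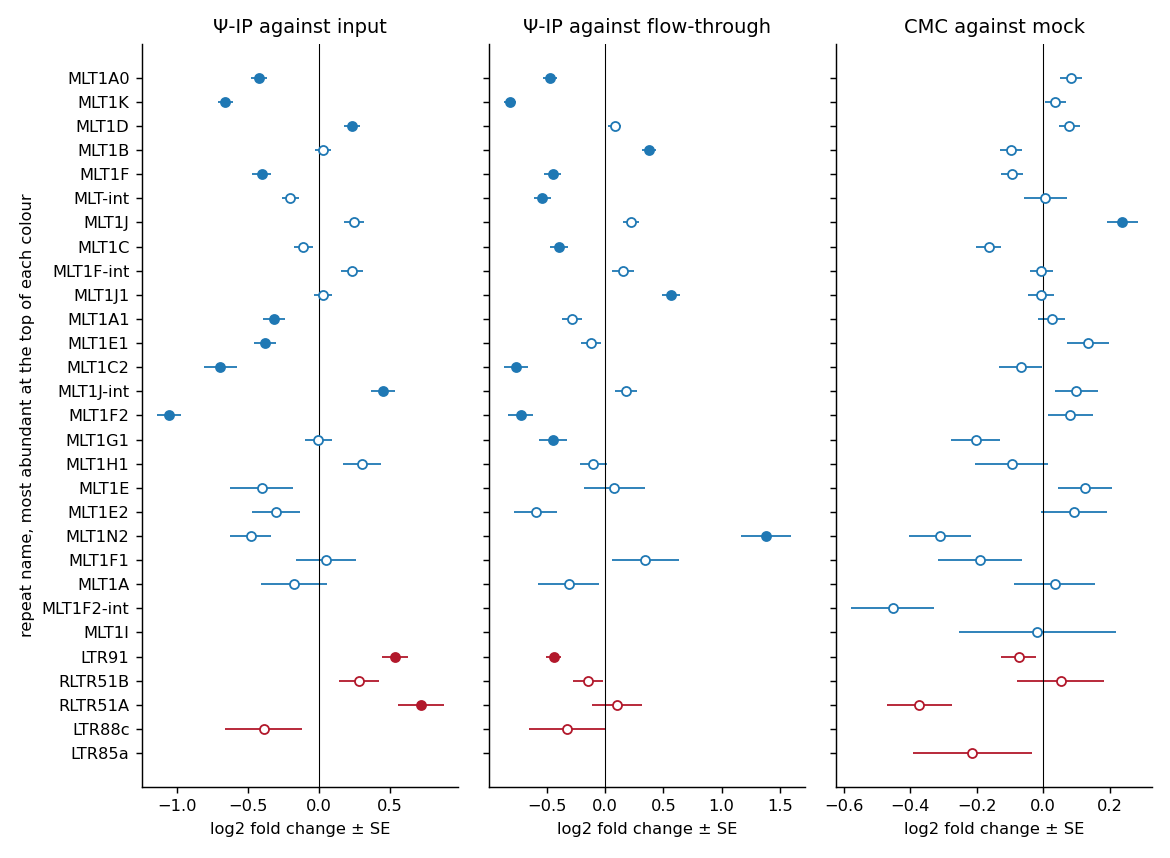
Log2 fold change with its SE for every repeat name tested, MLT names in blue and names of the other LTR families in red. Filled points passed an adjusted p-value of 0.01, and the horizontal scales of the 3 comparisons differ. MLT1F2 at -1.06 and MLT1N2 at 1.38 are the farthest filled points from 0.

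Names add up copies that can move apart, and the individual copies were tested next. Of 215 MLT copies 79 averaged at least 10 counts in input and Ψ-IP libraries, of which 12 were lower and 6 higher in Ψ-IP. Over 3053 copies of all repeats 12.0% were lower and 12.0% higher. Against flow-through 8 were lower and 10 higher of 74, beside 13.3% and 16.7% of 3075 copies. The share called was thus 15.2% lower and 7.59% higher against input and near that of all copies against flow-through. In the second group 2 of 7 copies were higher than input and 0 of 7 differed from flow-through. With CMC 0 of 89 MLT and 0 of 7 other copies were called, beside 0.495% of 3633 copies higher and 1.54% lower.

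The count of 0 with CMC came from edgeR, and 21 of the 89 and 1 of the 7 had an unadjusted p below 0.05. With the replicate block an MLT1B copy at chr4:94293784-94293918 (log2 fold change -0.29, SE 0.06, adjusted p = 0.00564) and RLTR51A at chr15:74655148-74655445 (-0.42, SE 0.10, adjusted p = 0.00674) were called, both lower with CMC. Without CMC-treated library 1, 3 MLT copies were called. DESeq2 called 0 of both groups.

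The MLT copy with most counts over the 15 libraries, though not in input, Ψ-IP or flow-through alone, is MLT1A0 at chr7:73122081-73122417 on the plus strand. It lies outside annotated genes, 2033 bp from 4933435G04Rik. It had 448, 390 and 473 CPM in Ψ-IP, 691, 624 and 699 in the input libraries and 666, 698 and 758 in flow-through. All Ψ-IP values were below all others (log2 fold change -0.54 against input, SE 0.08, adjusted p = 1.76e-05). In the other set of libraries it had 1760, 1822 and 1862 CPM with mock treatment and 1973, 2068 and 2130 CPM with CMC. Kit and set cannot be told apart between these levels, and tests were made only within a set.

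MLT1K at chr18:67062396-67062763 on the minus strand, the first copy in input and flow-through, accounted for nearly all of its name. Ψ-IP libraries had 699, 701 and 692 CPM, input libraries 1144, 1053 and 1173 (log2 fold change -0.61, SE 0.08, adjusted p = 7.92e-07). In the same stretch and on the same strand lies an MLT1B copy at chr18:67043947-67044215. That MLT1B copy had 368, 376 and 358 CPM in Ψ-IP, against 432, 398 and 438 in input and 236, 288 and 289 in flow-through. It was higher than flow-through (0.65, SE 0.11, adjusted p = 5.89e-05) and was not called against input (-0.12), while the MLT1K copy was lower than flow-through (-0.62), so neighbours on the same strand went opposite ways.

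The MLT1D copy at chr7:73824413-73824901 lies in an exon of Gm21269 and had 826, 865 and 859 CPM in Ψ-IP, above 691, 758 and 724 in input and 726, 670 and 675 in flow-through. Its log2 fold change was 0.31 against input (SE 0.08, adjusted p = 0.00314) and 0.52 against flow-through (SE 0.09, adjusted p = 9.88e-05). The call against input was lost when input library 1 or 3 or Ψ-IP library 3 was left out (values 0.25 to 0.31) and on library totals alone (0.23). MLT1F at chr15:59259593-59260080 was lower than input, with 360, 304 and 301 CPM against 438, 416 and 448 (-0.36, SE 0.08, adjusted p = 0.00167). That call was lost without input library 3 or Ψ-IP library 3.

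Some small copies moved most. MLT1J at chr15:59251743-59251887, in the same stretch and on the same strand as the MLT1F copy, had 25.7, 33.7 and 27 CPM in Ψ-IP, 9.14, 9.47 and 9.80 in the input libraries and 7.58, 6.10 and 6.36 in flow-through. Its log2 fold change was 1.68 against input (SE 0.13, adjusted p = 5.65e-10) and 2.32 against flow-through (SE 0.16, adjusted p = 1.74e-09). Of its counts 33.5% were at a single 31-nt locus. MLT1B at chr7:73147580-73147882 rose from 4.35, 2.78 and 4.13 CPM to 9.51, 6.91 and 10.9 (1.36, SE 0.18). MLT1B at chr4:94293784-94293918, in an intron of the long noncoding RNA Gm12648, had 114, 144 and 162 CPM in Ψ-IP against 62.8, 72.4 and 75 in input and 42.1, 70.8 and 61.4 in flow-through (1.08 and 1.48).

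In the other direction, MLT1K at chr6:87979094-87979199 fell from 9.38, 8.51 and 9.91 CPM in input to 1.71, 2.51 and 2.42 in Ψ-IP (log2 fold change -1.96, SE 0.18, adjusted p = 6.37e-09). MLT1A1 at chr10:75874517-75875201 fell by 1.72 and MLT1A0 at chr5:149792597-149792734 by 1.40 on the log2 scale. The former is the minor, minus strand of its element, with 953 counts against 21204 on the plus strand. Against flow-through neither was called, with a log2 ratio of mean CPM of -0.24 for the MLT1A1 copy and -0.47 for the MLT1A0 copy. The MLT1A0 copy had 21.7, 23.4 and 25.2 CPM in flow-through and 17.7, 16.5 and 16.5 in Ψ-IP, which did not overlap. The largest fall below flow-through among called copies without overlap was that of MLT1G1 at chr11:103424741-103424822, with 2.31, 1.73 and 2.09 CPM in Ψ-IP and 9.35, 5.66 and 4.40 in flow-through (-1.45, SE 0.28, adjusted p = 0.000318). MLT1A1 at chr17:27296211-27296331 was lower than both references (-0.82 and -0.96), but the call was lost without input library 2, and against flow-through without Ψ-IP library 1 or 2 or flow-through library 1.

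MLT1N2 at chr1:57359190-57359347, the only copy of its name, lay between its references. It had 5.40, 5.18 and 6.73 CPM in Ψ-IP, 8.86, 7.84 and 8.48 in the input libraries and 2.09, 2.48 and 2.24 in flow-through. Ψ-IP was above flow-through (1.57, SE 0.23, adjusted p = 2.08e-05), and the lower value than in input was not called (-0.44, adjusted p = 0.0289). Its locus printed above, with 15 T in 30 nt, had 6, 6 and 11 counts in Ψ-IP, 21, 17 and 15 in input and 0, 5 and 3 in flow-through and was not called.

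The LTR91 copy, at chr5:149824690-149824811 on the minus strand, lies outside annotated genes, 12938 bp from Gm21221. The opposite strand had 459 counts against 223302. In Ψ-IP it had 316, 281 and 304 CPM, above 195, 241 and 196 in input (log2 fold change 0.59, SE 0.09, adjusted p = 2.3e-05) and below 421, 421 and 395 in flow-through (-0.24, SE 0.09, adjusted p = 0.0444). As a name the same reads gave -0.44 and a call. The scaling accounts for that. TMM factors placed Ψ-IP at -0.22 relative to flow-through on the log2 scale in the table of copies and at -0.02 in that of names, and each log2 fold change is relative to this shift. On library totals alone the copy was called at -0.46 (adjusted p = 0.000472). RLTR51A at chr15:74655148-74655445 was higher than input (0.76, SE 0.16, adjusted p = 0.000429), with 9.25, 7.0 and 8.82 CPM against 5.27, 5.79 and 4.66.

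**Figure D3:**
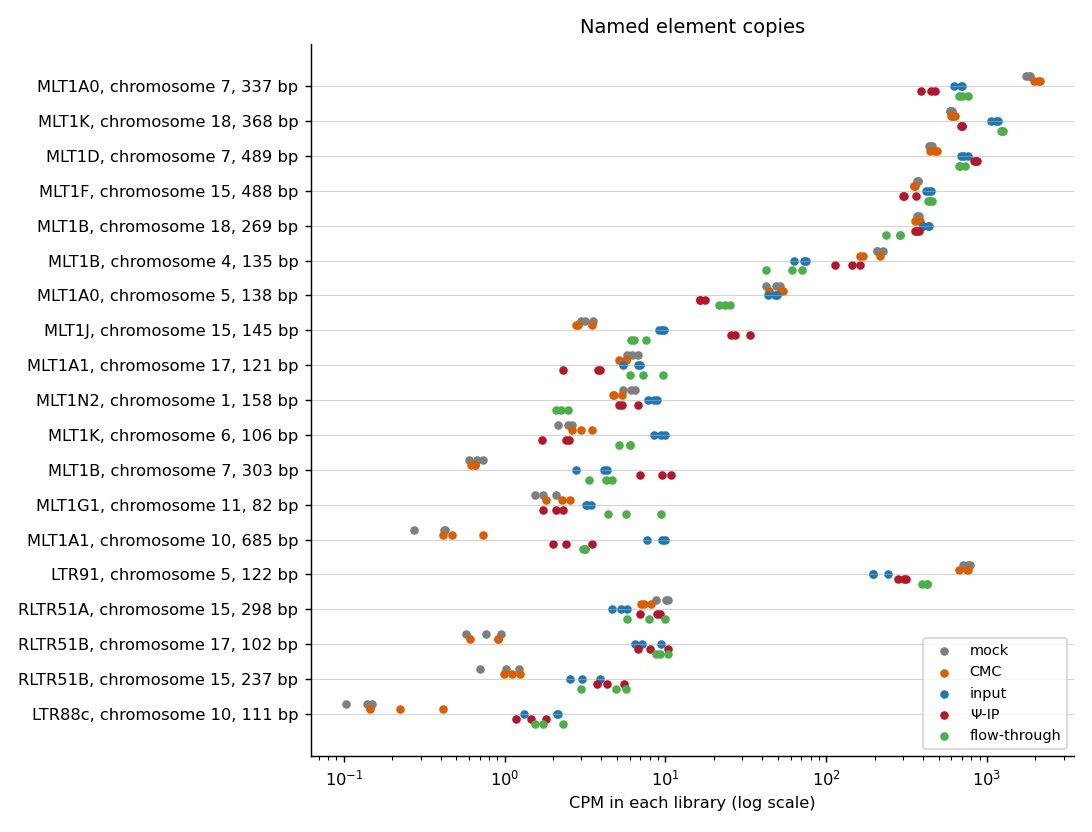
CPM of each named copy in each library, on a log scale, with 3 points per group. MLT copies are listed first by abundance and copies of the other LTR families below them, and for LTR91 the 3 groups of the immunoprecipitation set do not overlap.

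A further pair of copies cannot be told apart by their reads. MLT1A0 at chr4:62223007-62223424, minus strand, in an intron of Zfp37, and MLT1A0 at chr4:62236107-62236518, plus strand, had 98525 and 98715 counts. Of the 130 loci with at least 100 counts in the former, all 130 had a mirror-image locus in the latter, allowing for a shift of 6 bp within the element, and all 130 pairs agreed within 0.5 on the log2 scale. The difference over libraries had a mean chi-square of 1.06 per degree of freedom, close to the value of 1 that dividing reads evenly at random would give. Both were left in the counts of copies above. With the pair counted as 1 copy, 11 stretches held several copies, 29 in all, and 75.5% of the counts. The files do not say how reads with several alignments were placed, and whether other copies share reads was not tested.

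Copies were set beside the sequence around them. Over 10 kb on each side and on the same strand, the log2 ratio of mean CPM between Ψ-IP and input ranged from -0.28 to 0.23 for the 32 copies examined. The copies themselves ranged from -2.07 to 1.60, and 19 of 32 lay farther from 0 than any flank. Some of the 32 were included because they had the largest called rises and falls in these comparisons, so the spread of the copies is partly fixed by that choice. Against flow-through the flanks ranged from -0.53 to 0.40 and the copies from -1.66 to 2.11, with 13 of 32 beyond any flank. The value of -0.53 is that of the MLT1A1 copy at chr10:75874517-75875201, whose flanks held 711 counts against 953 in the copy; without it the flanks ranged from -0.47 to 0.40 and 14 copies lay beyond them. For the LTR91 copy the ratios were 0.51 and -0.46, and for its flanks -0.07 and 0.08. The other 31 flanks held more counts than their copies, 7836173 against 223302 for LTR91. These ratios are descriptions with no test.

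**Figure D4:**
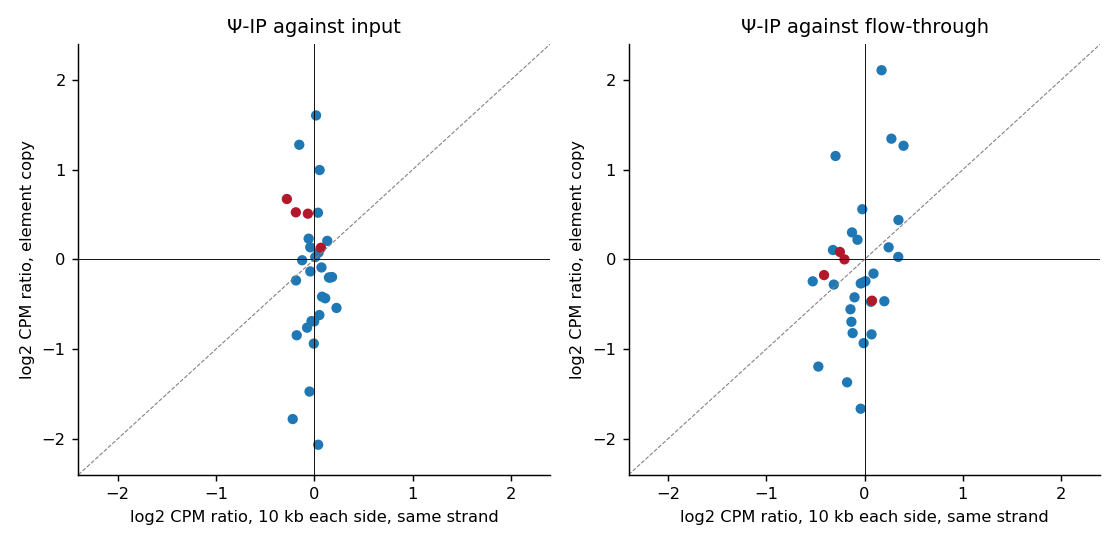
Log2 ratio of mean CPM of 32 copies (vertical) against that of the 10 kb on each side on the same strand (horizontal), with MLT copies in blue and the other LTR families in red; the dashed line marks equal ratios. Points spread vertically from -2.07 to 1.60 on the left while the flanks stay between -0.28 and 0.23.

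Single loci showed that a copy is not a unit either. Of 40207 MLT loci 4032 had more than 20 counts in the immunoprecipitation set, of which 594 were lower and 188 higher than input. That is 14.7% and 4.66%, beside 11.1% and 4.95% of all 686863 loci tested. Against flow-through 320 were higher (7.94%) and 154 lower (3.82%), beside 9.27% and 3.57%. These shares were of the same order as those of all loci in both comparisons. TMM factors of the locus table placed Ψ-IP at 0.19 relative to input and at -0.25 relative to flow-through on the log2 scale. In the table of families these shifts were 0.01 and 0.02. Each log2 fold change is relative to its shift, so directions at single loci are not comparable with those of the group totals. Of the second group 236 of 2224 loci were tested, with 12 higher and 5 lower than input and 6 higher and 10 lower than flow-through. Within the MLT1D copy on chromosome 7 that rose, 36 of 376 loci were higher and 37 lower than input. Within the MLT1K copy on chromosome 18 that fell, 103 of 415 were lower and 12 higher.

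Counts at single loci are given as deposited and so also follow the library totals. The most abundant MLT piRNA in flow-through, mock-treated and CMC-treated libraries was a 30-nt locus at chr7:73122128-73122157 in the MLT1A0 copy. In Ψ-IP the first MLT1D locus printed above was higher by mean CPM. In input both were close, at 114 ± 8.39 CPM for the MLT1A0 locus and 118 ± 23.1 for the MLT1D locus (SD, n = 3). There the MLT1D locus had 2493, 2386 and 2091 counts and was the higher only in input library 2. The MLT1A0 locus had 774, 563 and 1614 counts in Ψ-IP, 2884, 1745 and 2303 in input and 3784, 3384 and 3121 in flow-through (log2 fold change -1.09 and -1.41). A 31-nt locus that begins 14 bases downstream, at chr7:73122142-73122172, had 19, 21 and 33 counts in Ψ-IP and 240, 128 and 203 in input (-2.74, SE 0.29, adjusted p = 3.12e-18). In mock-treated libraries it had 7368, 12982 and 10320 counts. A 19-nt locus at chr5:149792667-149792685 had 59, 38 and 51 counts in input and 0 in all Ψ-IP libraries, at least 38.5-fold lower when 3 counts are allowed over the Ψ-IP group.

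The MLT1J1 copy at chr7:73797544-73797878 overlaps an exon of Gm45006 and an intron of the long noncoding RNA Gm10619. A 30-nt locus of this copy, at chr7:73797581-73797610, had the largest rise over flow-through among the named loci. It had 72, 91 and 151 counts in Ψ-IP, 141, 69 and 91 in input and 0, 5 and 1 in flow-through. The log2 fold change was 6.08 against flow-through (SE 0.52, adjusted p = 2.56e-28) and 0.28 against input. Without single libraries the former ranged from 5.36 to 7.79. An MLT1F-int locus at chr18:67047028-67047056 was also nearly missing from flow-through, with 0, 1 and 5 counts against 48, 29 and 51 in Ψ-IP. An MLT1B locus at chr7:69886583-69886613 rose against input, from 4, 8 and 4 to 19, 43 and 45 counts (2.92), but had 58, 51 and 25 in flow-through. At chr18:67062590-67062623, in the MLT1K copy, a 34-nt locus fell from 92, 46 and 71 counts in input to 4, 2 and 1 in Ψ-IP.

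The printed sequences differ in uridine content. The MLT1D locus with 13 T at chr7:73824637-73824666 had 32, 27 and 57 counts in Ψ-IP, 13, 3 and 6 in input and 10, 17 and 4 in flow-through (log2 fold change 2.59 and 2.37). That with 5 T at chr7:73824430-73824459 in the same copy had 0, 0 and 11 counts in Ψ-IP, 33, 12 and 21 in input and 56, 34 and 40 in flow-through (-2.43 and -3.21). Without single libraries these values ranged from -7.24 to -1.92 and from -8.17 to -2.74, the lowest of each without Ψ-IP library 3, and the call against input was lost without input library 1 and with DESeq2 (adjusted p = 0.0148). The 30-nt locus that begins 10 bases downstream of it, also with 5 T, was called in neither comparison (0.28 and 0.07). The most abundant MLT1D locus, with 10 T, had 1115, 1786 and 2613 counts in Ψ-IP and 1050, 1102 and 994 in flow-through (1.27) and was not called against input (-0.16).

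Among MLT loci with a sequence and more than 20 counts in the immunoprecipitation set, the 58 higher than input had a median of 11 T, the 78 lower 8, and the 556 not called 8. Against flow-through the 70 higher loci also had a median of 11 T and the 12 lower 8. A T at the 5′ end was present in 96.6% of the loci higher than input, in 84.6% of those lower and in 83.6% of those not called. Against flow-through these shares were 97.1%, 91.7% and 83.3%. These loci overlap within a handful of copies, so they share sequence and the counts are descriptions. Whether Ψ content or base composition moved with these calls cannot be told apart.

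The MLT1C locus with 16 T, at chr7:73821651-73821680, was higher in Ψ-IP and lower with CMC. It had 58, 53 and 87 counts in Ψ-IP, 45, 32 and 30 in input and 26, 40 and 29 in flow-through (log2 fold change 1.10, adjusted p = 0.00278, and 1.53, adjusted p = 0.000932). With CMC it had 292, 124 and 121 counts against 339, 507 and 348 in mock-treated libraries (-0.84, SE 0.15, adjusted p = 0.000138). An MLT1A0 locus at chr4:62223012-62223042 was lower with CMC by a similar amount (-0.81), and its higher values in Ψ-IP were not called. Since it lies in the mirrored pair above, its reads belong to either copy. Its call was lost without mock-treated library 3 or CMC-treated library 2. That of the MLT1C locus was lost without input library 1 or 3 against input and without flow-through library 1 against flow-through. With loci of more than 5 counts in total kept it was also lost against input (0.98, adjusted p = 0.0240).

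Of MLT loci 3521 were tested with CMC, of which 47 were higher (1.33%) and 11 lower (0.312%), beside 1.07% and 0.667% of all 556583 loci. Of 225 loci of the second group 17 were higher (7.56%) and 1 lower. All of these lie in the LTR91 copy, in which 208 loci were tested, so they share 5′ or 3′ ends and are not independent. The lower locus was its most abundant in mock-treated and CMC-treated libraries, 30 nt at chr5:149824698-149824727, with 9023, 4858 and 5964 counts with CMC and 8637, 16901 and 10857 with mock treatment (log2 fold change -0.48, SE 0.11, adjusted p = 0.00513). That call was lost without mock-treated library 2 or 3 or CMC-treated library 2, at an average of at least 20 counts (adjusted p = 0.0107) and with loci of more than 5 counts in total kept (adjusted p = 0.0210).

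Several loci higher with CMC began a single base inside a far more abundant locus. An example is the 29-nt locus at chr7:73122129-73122157, which ends with the 30-nt MLT1A0 locus described above and begins 1 base after it. It had 115, 74 and 67 counts with CMC and 7, 8 and 12 with mock treatment (log2 fold change 3.59, SE 0.27, adjusted p = 2.21e-13), while the 30-nt locus had 26628, 14736 and 14975 against 16686, 27961 and 18432 (0.20, not called). Of the 47 MLT loci higher with CMC, 12 had a locus with the same 3′ end, beginning 1 base upstream and at least 10 times as abundant over the 6 libraries. The same held for 0 of 11 lower loci and for 3.96% of those not called. A partner of that abundance beginning 1 base downstream instead was found for 0 of the 47 and for 3.58% of those not called.

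These 12 loci lie in 5 copies and rose by 1.08 to 4.46 on the log2 scale. Most lie in the MLT1A0 copy on chromosome 7, where several share the 5′ end at 73122129 or at 73122143. They are thus not independent. In the LTR91 copy 3 of 17 higher loci had such a partner, with rises of 1.38 to 1.54, and so did 8.21% of those not called; a downstream partner was found for 1 of the 17 and 3.38%. Its 29-nt locus at chr5:149824698-149824726 had 446, 297 and 381 counts with CMC and 129, 244 and 202 with mock treatment, while the 30-nt locus with the same 3′ end was the one that fell. The pattern is not particular to these repeats: of all 5939 loci higher with CMC in the whole series 28.6% had such a partner, and of those not called 2.68%. A downstream partner was also more frequent among the higher loci of the series, at 4.98% against 2.49%. Abundance was not matched between higher loci and those not called here either, and the comparison was chosen after the values were seen.

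Where reads begin within LTR91 differed between the libraries. Positions are counted from the upstream edge of the copy on its own strand. The 5′ end at position 84 held between 50.2% and 52.7% of the copy's counts in mock-treated and between 40.5% and 41.2% in CMC-treated libraries, but between 24.1% and 27.2% in input, 19.8% and 22.5% in Ψ-IP and 7.36% and 11.2% in flow-through. Where these shares differ between the sets, kit and set cannot be told apart. The end at position 20 held 34.4% to 40.3% in flow-through, 22% to 26.1% in input and 16.1% to 19.4% in Ψ-IP. In flow-through it reached 151 ± 17.2 CPM (SD, n = 3), against 49.6 ± 4.39 in input and 52.8 ± 5.35 in Ψ-IP.

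Position 64 behaved otherwise. It held 14.6% to 16.9% of the copy in Ψ-IP, 8.26% to 10.8% in flow-through and 6.09% to 7.28% in input, with 47.2 ± 3.54, 40.7 ± 5.46 and 14.4 ± 2.87 CPM. A 30-nt locus of this end, at chr5:149824718-149824747, had 377, 342 and 797 counts in Ψ-IP and 208, 192 and 125 in input (log2 fold change 1.67, SE 0.23, adjusted p = 5.61e-11). A 30-nt locus of position 20, at chr5:149824762-149824791, had 266, 263 and 640 counts in Ψ-IP and 1840, 1447 and 1014 in flow-through (-1.44, SE 0.26, adjusted p = 1.06e-06). A 27-nt locus of position 84 was higher than flow-through, with 157, 156 and 263 counts against 38, 91 and 32 (2.32, SE 0.33). Without single libraries that value ranged from 1.99 to 2.92. The position of LTR91 between its references was thus a sum of ends that moved apart.

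**Figure D5:**
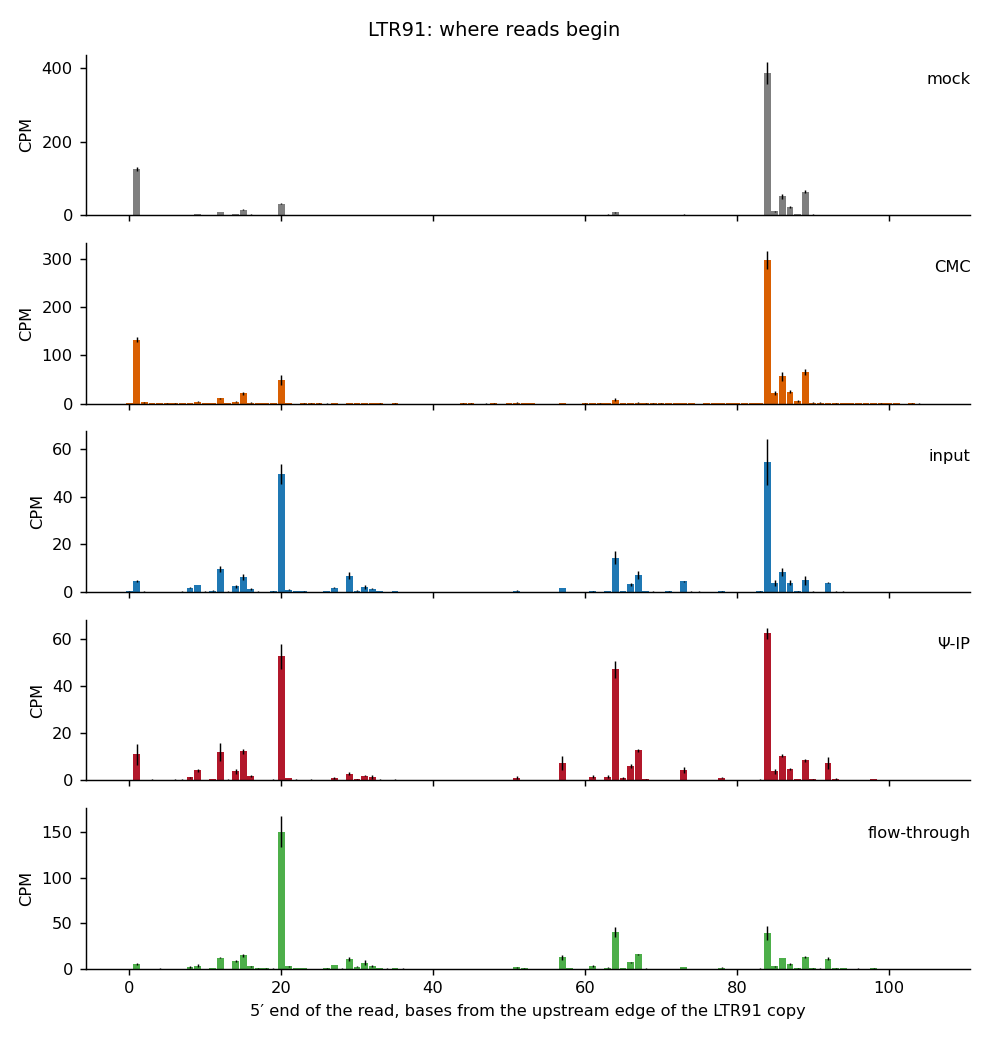
Mean CPM of reads by the position of their 5′ end in the LTR91 copy, in bases from its upstream edge, with the SD of 3 libraries as error bars and a vertical scale of its own for each group. The end at position 84 leads in mock-treated and CMC-treated libraries and that at position 20 in flow-through, where it reaches 151 CPM.

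Lengths were those of piRNAs. Both groups peaked at 30 nt in each of the 15 libraries. Lengths of 29 to 31 nt made up 62.8%, 64.2% and 63.2% of MLT counts in input, 64.5%, 65.7% and 66.1% in Ψ-IP and 64.2%, 64.3% and 64.5% in flow-through. The difference between Ψ-IP and input, 2.05 percentage points, was without overlap, but its exact two-sided permutation p was 0.1, the smallest that 3 against 3 allow (adjusted p = 0.15 over 6 tests). For the second group the shares were 56.7%, 58.0% and 56.5% in input, 60.4%, 59.5% and 61.9% in Ψ-IP and 69.5%, 66.8% and 67.9% in flow-through, with no overlap between any 2 groups. With CMC they were 61.8%, 61.0% and 61.3% against 65.8%, 66.3% and 66.3% with mock treatment, again without overlap. With each locus counted once in place of its reads, the difference of the second group from flow-through turned to 0.526 and that with CMC to 0.174 points.

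Shorter piRNAs, of 25 to 27 nt, made up 22.3 ± 0.231% of the second group in input and 12.9 ± 1.72% in flow-through (SD, n = 3), while in the MLT group they made up 14 ± 0.353% and 13.1 ± 0.476%. Against other LTR lineages the share of 29 to 31 nt depended on the set of libraries. In input it was lower in the second group than in MT, ORR1 and ERVL loci, at a mean difference of -6.45, -8.22 and -9.59 percentage points, and in all 3 libraries. In mock-treated libraries it was higher than in these lineages by 11.7, 7.74 and 9.51 points, again in all 3.

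The MLT share split the same way with smaller differences. In input it differed from ORR1 and ERVL by -1.90 and -3.27 points and in mock-treated libraries by 0.47 and 2.24 points, each with the same sign in all 3 libraries. From MT it differed by -0.12 points in input, with 2 of 3 libraries positive, and by 4.46 points in mock-treated libraries, where all 3 were positive. Over 3 libraries an exact sign-flip test cannot give a p below 0.25. Pooled over the 6 libraries, the exact sign-flip p was between 0.156 and 1 and the adjusted p between 0.75 and 1 over 6 tests, but the pooled mean sets differences of opposite sign against each other. Kit and set cannot be told apart in this split.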

How the data were processed

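Small RNA of mouse testis was sequenced in 15 libraries, grouped by their labels. The authors clipped adaptors, set aside tRNA fragments, mapped reads to mm10 with Bowtie 2 and intersected them with annotated repeats, for which the submitters' processing notes name bedtools. Per the methods, reads were then intersected with annotated mouse piRNA clusters. What the authors deposited are unnormalized read counts for each exact interval and strand. How reads with several alignments were counted is not given in the sources used here.

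Loci were split by the repeat class, family and name in their identifiers. Counts were summed over repeat families (kept at an average of at least 100 counts), names (20) and copies (10; loci merged across gaps of up to 300 bp). Single loci needed more than 20 counts in a set. Every table was fitted whole in R 4.3.3 with edgeR 4.0.16, using TMM factors and its quasi-likelihood test, with 6 libraries in each fit. P-values were adjusted by Benjamini-Hochberg and a call needed an adjusted p-value under 0.01. The SE was derived from the log2 fold change and its F statistic. DESeq2 1.42.0 was an alternative, as were other scalings and minimums, loci of 24 to 33 nt, and the omission of each library. Fits were tested on simulated data. Without molecular identifiers, reads are not independent molecules.

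Members and lists were chosen with earlier results of these data known. Named were, by mean CPM over the 15 libraries, the 10 most abundant names, 5 copies and 4 loci of each group, and further the called names, and the called copies (3) and loci (2) with the largest rise and fall without overlap in each comparison, loci being required to average 20 counts. The loci beginning 1 base inside another, the flanks and the mirrored pair were chosen after values were seen. GENCODE gave genes and sequences.

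Pairs of libraries within groups had chi-square values per degree of freedom of 2.69 to 11.5, above sampling noise, so each counted as a replicate. For CMC and mock treatment, same-numbered libraries deviated together over 87755 loci (correlations of 0.115, 0.135 and 0.278), but over 1924 copies 1 of 3 correlations was -0.06. The labels do not say what a number shares. For Ψ-IP 1 of 3 pairs was negative in each comparison, so there the numbers were not taken to pair libraries.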

Additional observations from a re-analysis of the deposited data

How the results depend on the processing

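Group totals kept their direction and side of the threshold under every alternative except the omission of the most abundant copy, which took both Ψ-IP calls from the second group (0.28 against input, -0.13 against flow-through). With replicate number as a block, 2 MLT names, 1 MLT copy and 1 copy of the second group were called with CMC. The block moved no other count by over 1.5 times. For MLT names with CMC, the DESeq2 Wald test called 2 and library totals alone 0, and leaving out libraries gave 0 to 1. Names of the second group higher than input numbered 1 to 2 without single libraries. For copies, library totals alone or an average of at least 50 counts gave 1 call of the second group against flow-through. Merging with a gap of 0 gave 2 MLT calls with CMC, and leaving out libraries 0 to 3.

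Counts of single loci depended on the settings too. Against input the DESeq2 Wald test called 459 MLT loci and 8 of the second group, and an average of at least 20 counts left 404 MLT loci. Without single libraries they ranged from 440 (without input library 1) to 775 and from 6 (without input library 3) to 18. Against flow-through the higher minimum left 296 MLT loci, and calls of the second group ranged from 10 (without Ψ-IP library 1) to 15. With CMC the Wald test called 38 MLT loci and the higher minimum left 32 and 11, while MLT calls ranged from 35 (without mock-treated library 2) to 79 (without CMC-treated library 1).

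With each locus counted once, the difference in the share of 29 to 31 nt was 4.57 points for MLT loci against input, and 5.74, 0.526 and 0.174 points for the second group against input, flow-through and mock treatment, so the last 2 turned direction. With loci of 24 to 33 nt only, it was 0.222 points for MLT loci against flow-through, 1.86 for the second group against input and -4.40 with CMC, and the second group exceeded ORR1 and ERVL by 0.0978 and 0.463 points. Without single libraries the MLT share differed from ERVL by -1.16 to 0.260 points, and that of the second group from ORR1 by -2.14 to 1.42 and from ERVL by -2.34 to 2.05. These pooled differences join opposite signs: in input alone the difference from MT was -0.124 points for MLT loci and -6.45 for the second group, and in mock-treated libraries alone those from ORR1 and ERVL were 0.468 and 2.24 for MLT loci and 7.74 and 9.51 for the second group. Among named items that were called, 247 fits under alternatives kept the call for names, 254 for copies and 322 for loci, while 16, 10 and 24 lost it with the direction unchanged. Library totals alone and the separate sets were added after seeing the data.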
